A study of Mus musculus with 56 samples.

Results

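Cryptochromes are the proteins that close the negative feedback loop of the mammalian circadian clock. CLOCK and ARNTL (BMAL1) activate the Cry and Per genes through E-box elements, and CRY1 and CRY2, together with the PER proteins, return to the nucleus and repress that activation. Ubiquitin ligases set how long the CRY proteins last. Mammals have a pair of these genes, and both are members here (Cry1, ENSMUSG00000020038, and Cry2, ENSMUSG00000068742). They were taken by gene symbol, and they are 2 of the 22864 genes listed. Both passed the filter on low values that left 13893 genes for testing.

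The transcripts were measured by polyA RNA-seq in hearts of female C57BL/6J mice aged 9 weeks. All mice lived in a cycle of 12 h light and 12 h dark and had 7 days of acclimation. For the next 7 days food was offered in the light phase to one regimen (daytime restricted, DRF) and in the dark phase to the other (nighttime restricted, NRF). NRF is the reference, since mice are nocturnal feeders, and the design asks whether the heart clock follows the meals or the light. Sampling ran from lights on (zeitgeber time 0, ZT0) every 4 h to ZT24, so 7 ZTs with 4 hearts per regimen make 14 groups and 56 libraries. The labels name no transgene, mutation or drug in any group. Levels below are in TPM, a unit in which reads are divided by exon length and brought to the same total in every library, recomputed from 29.3 to 53.0 M recovered reads per library (median 37.4 M).

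Cardiomyocyte markers were abundant in every library, with Myh6, the main contractile myosin of the adult mouse heart, between 3560 and 6082 TPM. The summed level of the 4 atrial markers (Myl7, Sln, Myl4 and Nppa) ranged from 95.0 to 5481 TPM under DRF (median 1802 TPM) and from 129 to 4307 TPM under NRF (median 609 TPM), so atrial transcripts varied among hearts and their median was higher under DRF. The summed level of the 3 red cell markers ranged from 1509 to 57917 TPM under DRF and from 1299 to 34456 TPM under NRF. Each library was also set against the 14 groups over 17 clock genes other than the cryptochromes. By this measure 44 libraries lay nearest their own group, 6 nearest the ZT0 or ZT24 group of their own regimen, and 4 nearest the other regimen at the same clock time. The 2 that remain went against both of their labels. The library labelled DRF ZT4 replicate 1 lay at a root mean square distance of 1.07 log2 units from its own group and 0.245 from NRF ZT8. The library labelled NRF ZT8 replicate 1 lay at 1.33 from its own group and 0.384 from DRF ZT4. In the other 54 libraries the distance to the own group was at most 0.785. That largest value belonged to DRF ZT16 replicate 1, which lay at 0.353 from NRF ZT16. NRF ZT16 replicate 4 lay at 0.452 from its own group and 0.412 from DRF ZT16. All libraries were kept where their labels put them. Values that moved with DRF ZT4 replicate 1 and NRF ZT8 replicate 1 are also given with both left out ("without the 2 libraries").

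Cry1 lies on the minus strand of chromosome 10 (GRCm38, chr10:85131700-85185064), and Cry2 on the minus strand of chromosome 2 (chr2:92403646-92434043). The 250 bases before each RefSeq start (GRCm38.p6) are shown because E-box control is what places both genes in the loop, and capitals mark the motif matches. The window of Cry1 is chr10:85185055-85185304 and that of Cry2 is chr2:92434070-92434319, both read 5′ to 3′ on the minus strand.
Cry1: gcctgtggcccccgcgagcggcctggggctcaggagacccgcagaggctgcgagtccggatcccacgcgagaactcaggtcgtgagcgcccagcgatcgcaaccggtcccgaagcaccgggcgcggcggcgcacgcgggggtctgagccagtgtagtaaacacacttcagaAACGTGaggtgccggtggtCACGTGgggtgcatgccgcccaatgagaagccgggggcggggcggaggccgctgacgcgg
Cry2: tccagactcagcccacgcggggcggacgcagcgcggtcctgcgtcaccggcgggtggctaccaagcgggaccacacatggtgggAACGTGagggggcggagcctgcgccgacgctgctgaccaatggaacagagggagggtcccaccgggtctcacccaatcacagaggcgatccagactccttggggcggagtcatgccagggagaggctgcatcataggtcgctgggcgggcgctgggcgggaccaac
The Cry1 window held 1 E-box (CACGTG, bases 60 to 55 before the start) and 1 E′-box (CACGTT, read on the opposite strand as AACGTG, bases 79 to 74). The Cry2 window held no E-box and 1 E′-box (bases 166 to 161, also on the opposite strand). The D-box (TTANNTAA), the target of DBP and NFIL3, and AGGTCA, the core bound by REV-ERB and ROR receptors, were found in neither window. Both strands were searched, and the motifs do not overlap one another in these windows. Of the 32851 RefSeq windows of the same length, 6.02% held the E-box, 3.85% the E′-box, 5.43% the D-box and 14.02% AGGTCA. Both windows were rich in G and C (71.2% in Cry1 and 68.8% in Cry2). A match describes letters and not a bound site.

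Cry1 and Cry2 were expressed at similar levels per transcript length, with means over all libraries of 14.5 and 13.0 TPM, higher than 61.6% and 58.6% of the genes tested. Under NRF Cry1 swung from a trough at ZT4 to ZT8 to a peak at ZT20 and Cry2 from a trough at ZT4 to a peak at ZT12. Under DRF the Cry1 wave was lower and earlier, and the Cry2 wave was nearly flat. The mean level of Cry1 over the day was lower under DRF, and that of Cry2 was not distinguishable between regimens.

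**Figure D1:**
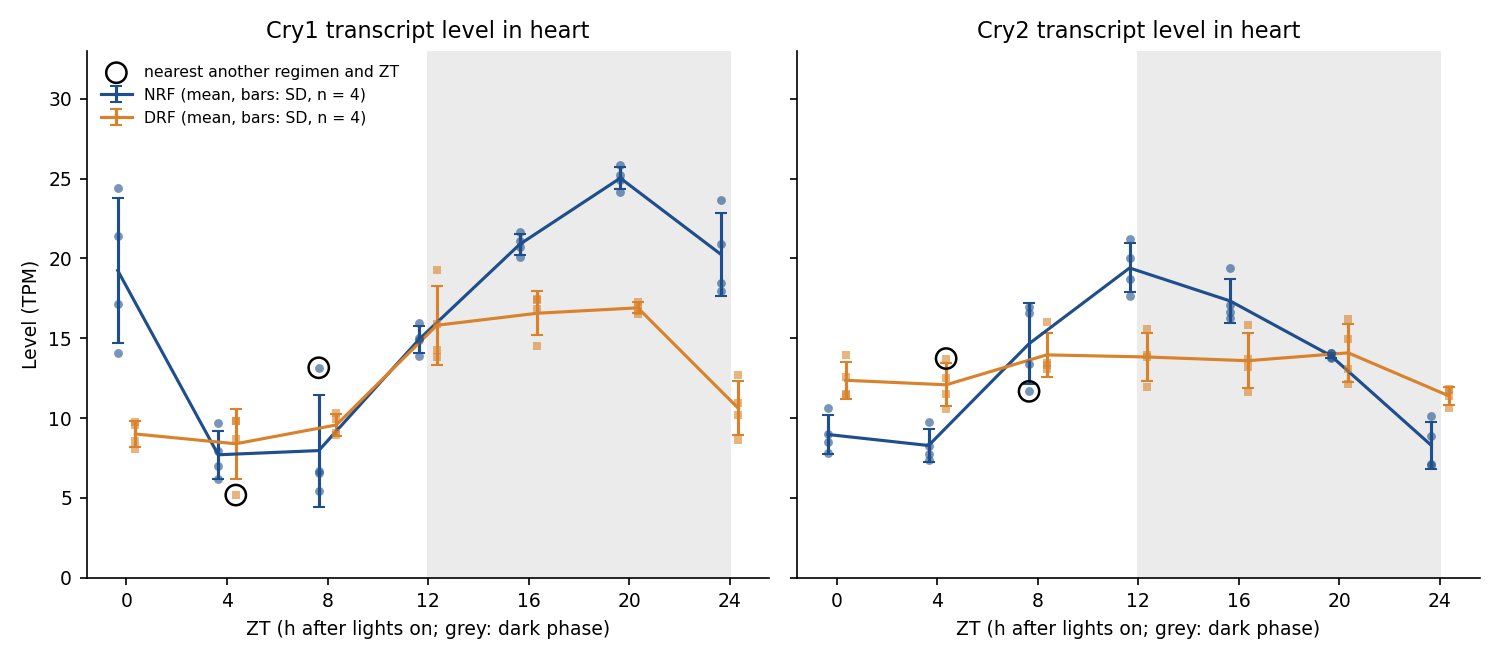
TPM of Cry1 (left) and Cry2 (right) in each of the 56 libraries by ZT, NRF in blue circles and DRF in orange squares, with lines through the group means and bars of 1 SD (n = 4). Circles in black mark the library labelled DRF ZT4 replicate 1 and the one labelled NRF ZT8 replicate 1. Cry1 under NRF peaks at 25.03 TPM at ZT20 and Cry2 under NRF at 19.4 TPM at ZT12, while the DRF means of Cry2 stay between 11.4 and 14.1 TPM.

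Under NRF the 4 libraries of ZT20 held 24.9, 25.8, 25.2 and 24.1 TPM of Cry1, the highest group of the study at 25.03 ± 0.701 TPM (SD, n = 4). The libraries of ZT16 held 20.1, 21.7, 21.1 and 20.7 TPM, below all of those at ZT20. At ZT24 the values were 20.9, 23.7, 17.98 and 18.5 TPM. These 3 groups, with ZT0, were the top of the Cry1 wave. At ZT0 the spread was wider, at 24.4, 17.1, 21.4 and 14.1 TPM. By the next sampling Cry1 had dropped, with 9.69, 6.19, 6.98 and 7.96 TPM at ZT4. No library of ZT4 reached the lowest of ZT0. At ZT8 the library labelled replicate 1 held 13.2 TPM of Cry1 and the others 5.44, 6.70 and 6.57 TPM. By ZT12, at the onset of darkness and food, Cry1 was at 15.004, 14.9, 15.98 and 13.9 TPM. ZT4 was the lowest group at 7.70 TPM, and the ratio of the highest to the lowest group mean was 3.25 under NRF. ZT8 was the lowest at 6.24 TPM (n = 3) without the 2 libraries, and the ratio was 4.01.

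Under DRF Cry1 formed a low block in the light and a plateau in the dark. At ZT0 the values were 9.77, 8.60, 9.59 and 8.08 TPM, and at ZT8 they were 9.09, 8.92, 9.94 and 10.3 TPM. At ZT4 the library labelled replicate 1 held 5.18 TPM and the others 8.71, 9.84 and 9.85 TPM. Those 3 libraries and the groups of ZT0 and ZT8 all lay between 8.08 and 10.3 TPM. Cry1 was higher at ZT12, with 15.9, 13.9, 14.2 and 19.3 TPM. It then held at 17.5, 17.4, 16.8 and 14.5 TPM at ZT16 and 16.5, 17.3, 16.7 and 17.1 TPM at ZT20. The ZT20 group was the tightest of the regimen, at 16.9 ± 0.34 TPM (SD, n = 4), and none of its libraries reached any NRF library of the same ZT. At ZT24 Cry1 was back at 10.2, 12.7, 8.61 and 10.9 TPM. The ratio of the highest to the lowest group mean was 2.01 under DRF, with ZT4 lowest, and 1.88 without the 2 libraries, with ZT0 lowest.

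A 24-h cosine described 81.0% of the variance of Cry1 under NRF and 77.7% under DRF, on the log2(TPM + 1) scale that all fits and tests below use. The rhythm of Cry1 passed the limma F test under NRF (amplitude 0.88 ± 0.085, SE, log2; adjusted p = 1.25e-08) and under DRF (0.55 ± 0.059; adjusted p = 1.96e-07), as did 37.2% and 32.2% of all genes tested. The fitted peak lay at ZT19.0 under NRF (95% interval 18.3 to 19.6) and at ZT16.2 under DRF (15.4 to 16.9). The difference in rhythm between regimens was called for Cry1 (adjusted p = 1.54e-05), in a test that called 27.5% of all genes. The shift of the peak, DRF minus NRF, was -2.80 h, earlier under DRF (SE 0.507 h, 95% interval -3.79 to -1.8 h; permutation of regimen labels within ZT, two-sided, p = 8e-05). The amplitude differed by -0.33 (SE 0.104, DRF minus NRF; permutation p = 0.00431), to 0.628 of that under NRF. With the 2 libraries that lay nearest another regimen and ZT left out, the shift was -2.93 h (permutation p = 2e-05) and the amplitude difference -0.44 (permutation p = 3e-05). Without replicate 2, replicate 3 or ZT4 the amplitude difference missed 0.05 (permutation p = 0.0765, 0.0586 and 0.189), and the shift kept its call in all of these.

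Cry2 under NRF rose and fell earlier in the day than Cry1. In the morning it was low, with 10.6, 8.50, 8.98 and 7.79 TPM at ZT0 and 7.37, 7.78, 8.26 and 9.73 TPM at ZT4. At ZT8 the library labelled replicate 1 held 11.7 TPM of Cry2 and the others 13.4, 16.6 and 16.9 TPM, so all 4 lay above every library of ZT4. The peak was at ZT12, at 19.995, 18.7, 21.2 and 17.7 TPM. At ZT16 the values were 16.7, 19.4, 17.1 and 16.2 TPM, which overlap those of ZT12. At ZT20 the 4 libraries lay close together, at 13.8, 13.8, 14.1 and 14.1 TPM. By ZT24 Cry2 was again low, with 8.89, 10.1, 7.09 and 7.13 TPM. The highest group mean was 2.34 times the lowest.

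Under DRF the values of Cry2 lay in a narrow band at all 7 ZTs, from 10.6 to 16.2 TPM in single libraries. In the light they were 13.95, 11.5, 12.6 and 11.5 TPM at ZT0, and the libraries of ZT8 held 13.3, 13.4, 16.04 and 13.1 TPM. At ZT4 the library labelled replicate 1 held 13.7 TPM and the others 12.5, 11.5 and 10.6 TPM. These groups overlap one another. In the dark Cry2 was at 13.8, 13.9, 11.9 and 15.6 TPM at ZT12 and 15.8, 13.2, 13.7 and 11.7 TPM at ZT16. At ZT20 it was at 13.1, 12.2, 16.2 and 14.9 TPM, and at ZT24 at 11.8, 11.4, 11.8 and 10.6 TPM. The ZT24 group was the lowest at 11.4 ± 0.556 TPM (SD, n = 4), and the ratio of the highest to the lowest group mean was 1.24.

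The rhythm of Cry2 passed the limma F test under NRF (amplitude 0.60 ± 0.046, SE, log2; adjusted p = 1.68e-10), where the 24-h cosine described 87.3% of the variance. Under DRF the amplitude was 0.11 ± 0.038 and the test just missed the threshold (adjusted p = 0.0550), with 26.3% of the variance described. Without the 2 libraries that lay nearest another regimen and ZT the DRF rhythm passed (amplitude 0.12; adjusted p = 0.0436), and it also passed after rescaling of the libraries by the median of ratios (adjusted p = 0.0212). The difference in rhythm was called (adjusted p = 4.16e-08). The amplitude differed by -0.49 (SE 0.060, 95% interval -0.61 to -0.37, DRF minus NRF; permutation p = 1e-05, the smallest that 100000 resamples can give), to 0.187 of that under NRF. The fitted peaks lay at ZT13.8 under NRF and ZT13.7 under DRF, but the peak of so flat a curve is poorly placed. The shift of -0.0997 h had a 95% interval of -2.90 to 2.7 h (permutation p = 0.913), which holds the shift of Cry1 as well as no shift, and its sign depended on the scaling.

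The peaks of Cry1 and Cry2 under NRF lay 5.20 h apart (SE 0.456 h, 95% interval 4.30 to 6.09 h), with Cry2 first. Under DRF the gap was 2.50 h (SE 1.43 h, interval -0.311 to 5.31 h). The gaps without the 2 libraries were 5.38 h under NRF and 2.14 h under DRF (interval -0.380 to 4.66 h). The reads of both genes come from the same libraries, which the standard error of the gap takes into account.

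The mean level of Cry1 over the day was lower under DRF by a log2 difference of -0.26 (SE 0.064; limma, adjusted p = 0.00339), in a test that called 26% of all genes, 24.3% as lower under DRF. The 28 DRF libraries averaged 12.4 ± 3.87 TPM of Cry1 and the 28 NRF libraries 16.6 ± 6.65 TPM (SD). The median difference of all genes tested was -0.051, and -0.020 after rescaling by the median of ratios, which left Cry1 lower (-0.22; adjusted p = 0.0160). The difference was -0.20 without the 2 libraries (adjusted p = 0.00642), and it lost its call without replicate 1 (-0.17; adjusted p = 0.0521) and without ZT12 (-0.20; adjusted p = 0.0630). Cry2 averaged 13.0 ± 1.61 TPM under DRF and 13.0 ± 4.48 TPM under NRF, a log2 difference of 0.0094 (95% interval -0.068 to 0.087; adjusted p = 0.889). In bulk tissue fewer cells of a type and less RNA per cell cannot be told apart.

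At matched ZTs Cry1 was lower under DRF around the end of the night. It was called at 3 of 7 ZTs, ZT0, ZT20 and ZT24. At ZT0 the log2 difference was -0.99 (SE 0.157; limma, adjusted p = 3.17e-05; 11.5% of all genes called), and the 4 libraries of each regimen did not overlap. At ZT24, the same clock time a day later, it was -0.88 (adjusted p = 0.000297; 8.83% called). At ZT20 it was -0.54 (adjusted p = 0.0156; 14.8% called), a call lost without replicate 2 (-0.53; adjusted p = 0.0851), without replicate 3 (-0.53; adjusted p = 0.0987) and on the deposited values as they are (adjusted p = 0.0794). The groups of ZT0, ZT20 and ZT24 were separate library by library, with DRF means 0.468, 0.675 and 0.524 times those of NRF. The atrial markers summed to 2278 to 5481 TPM in the DRF libraries of ZT0 and 342 to 4029 TPM in those of NRF, and with the atrial and red cell sums as covariates the same 3 ZTs were called for Cry1. The mean level of Cry1 with these covariates differed by -0.21 (adjusted p = 0.0155). At ZT16 the ranges did not overlap either, but the difference of -0.32 was not called (adjusted p = 0.20; 6.87% of all genes called).

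In the light and at dusk Cry1 did not differ past the threshold. The log2 difference was 0.090 at ZT4 (adjusted p = 0.884), 0.31 at ZT8 (adjusted p = 0.357; 0.353% of all genes called) and 0.068 at ZT12 (adjusted p = 0.833). The values at ZT4 and ZT8 rest in part on the 2 libraries described above. Without them Cry1 was higher under DRF at ZT8, by 0.55 (adjusted p = 0.00849), with 9.57 ± 0.678 TPM under DRF (n = 4) and 6.24 ± 0.690 TPM under NRF (n = 3). At ZT4 the difference without them was 0.28 (adjusted p = 0.210), with 9.46 ± 0.655 TPM under DRF (n = 3).

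Cry2 differed at 5 of 7 ZTs and in both directions, higher under DRF when NRF was at its trough and lower when NRF was at its peak. Around dawn Cry2 was higher under DRF, by 0.43 at ZT0 (SE 0.106; adjusted p = 0.00566), by 0.50 at ZT4 (adjusted p = 0.0113) and by 0.43 at ZT24 (adjusted p = 0.00796). At ZT4 only 0.446% of all genes were called. Around dusk it was lower, by a log2 difference of -0.46 at ZT12 (adjusted p = 0.00480; 7.64% of all genes called) and -0.33 at ZT16 (adjusted p = 0.0453). The ranges of the regimens did not overlap at any of these 5 ZTs. At ZT8 and ZT20 the differences were -0.056 (95% interval -0.26 to 0.15) and 0.0083 (-0.20 to 0.22), and the ranges overlapped. With the atrial and red cell sums as covariates 4 of the 5 ZTs were called, without ZT16 (-0.32; adjusted p = 0.0633). The call at ZT16 was lost in most alternatives, with the difference between -0.42 and -0.27 when libraries were left out. Without replicate 3 limma called no ZT for Cry2 (0 of 7), with adjusted p values of 0.0501 at ZT0, 0.132 at ZT4, 0.228 at ZT12 and 0.169 at ZT24. The call at ZT4 was also lost without replicate 2 (0.45; adjusted p = 0.160) and without NRF ZT4 replicate 1 (0.45; adjusted p = 0.0571), and that at ZT24 without NRF ZT24 replicate 3 (0.36; adjusted p = 0.0550). With DRF ZT4 replicate 1 and NRF ZT8 replicate 1 left out the difference at ZT4 was 0.44 (adjusted p = 0.0129) and 5 ZTs were called.

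**Figure D2:**
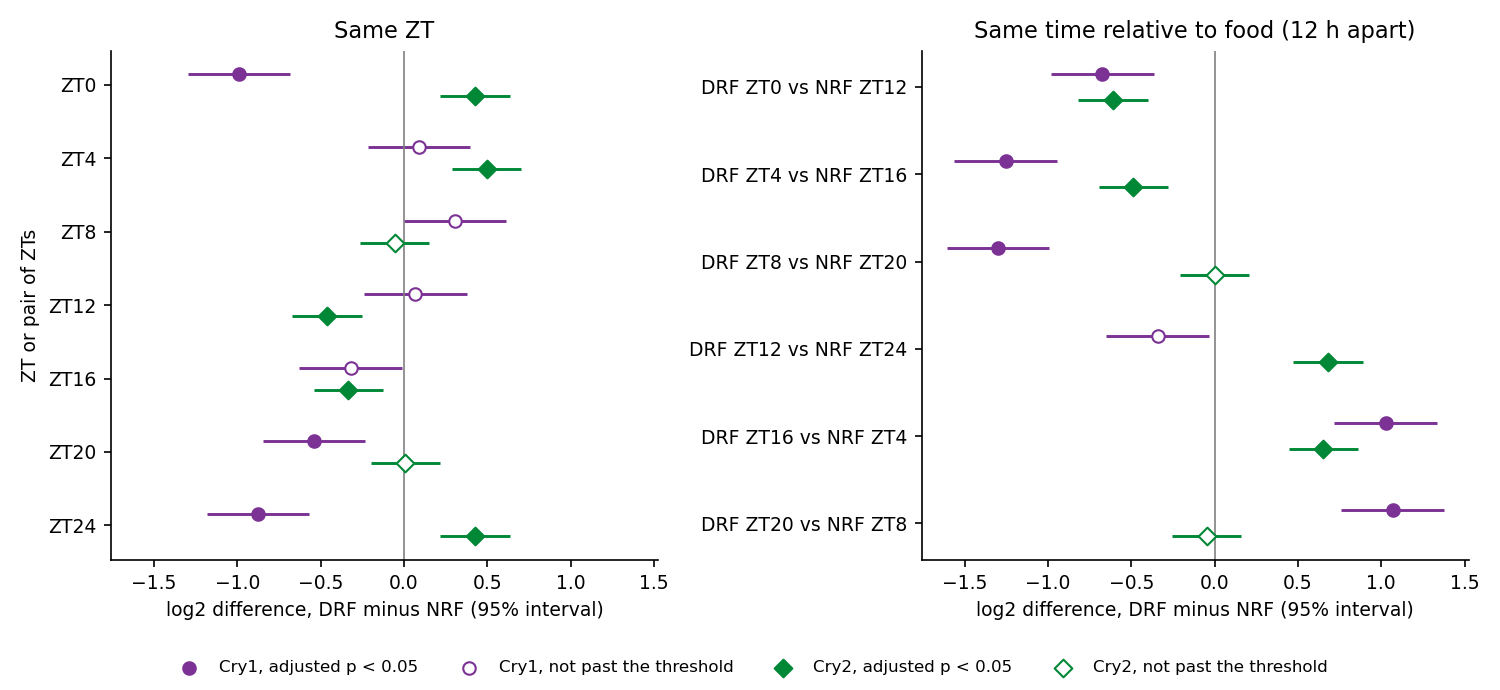
Log2 differences, DRF minus NRF, of Cry1 (purple circles) and Cry2 (green diamonds) with 95% intervals, at the same ZT (left) and between groups at the same time relative to food, 12 h apart (right). Filled symbols passed an adjusted p of 0.05 in limma. Cry1 at the same ZT is lowest at ZT0 (-0.99), and at matched food time its differences reach -1.30 and 1.07.

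DRF groups were also set against NRF groups taken 12 h later or earlier, at the same time relative to food. For Cry1 the mean absolute log2 difference was 0.944 over the 6 pairs matched on food and 0.386 over the same 6 DRF groups matched on ZT. Cry1 differed in 5 of 6 food-matched pairs, being lower under DRF at ZT0, ZT4 and ZT8 (against NRF at ZT12, ZT16 and ZT20) and higher at ZT16 and ZT20 (against ZT4 and ZT8). The tests of the 6 pairs, in order of the DRF ZT, called 6.21%, 6.4%, 5.49%, 5.18%, 22.7% and 24.1% of all genes. Between DRF at ZT8 and NRF at ZT20 the difference was -1.30 (SE 0.157; adjusted p = 5.40e-07), and between DRF at ZT20 and NRF at ZT8 it was 1.07, or 1.31 without the 2 libraries (adjusted p = 1.59e-10). The pair of DRF ZT12 and NRF ZT24 was not called (-0.34; adjusted p = 0.229). For Cry2 the mean absolute difference was 0.413 matched on food and 0.297 matched on ZT. Cry2 differed in 4 of 6 food-matched pairs, by -0.61 (DRF ZT0 against NRF ZT12), -0.49 (ZT4 against ZT16), 0.68 (ZT12 against ZT24) and 0.65 (ZT16 against ZT4). The pairs DRF ZT8 and NRF ZT20, and DRF ZT20 and NRF ZT8, differed by -0.00044 and -0.047 and were not called. The count was 4 of 6 pairs for Cry1 without replicate 2 or replicate 3, and 3 of 6 for Cry2 without replicate 2. The same counts of pairs were called without the 2 libraries, where the mean absolute differences were 0.953 matched on food and 0.458 matched on ZT for Cry1, and 0.439 and 0.303 for Cry2. No test compared the sizes of these distances, which share their samples. They also hold differences in amplitude and mean level, so they do not measure phase alone. Whether the transcripts followed the meals or the light was not tested.

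The steps between successive ZTs show when each transcript moved. Under NRF Cry1 fell by 1.21 on the log2 scale from ZT0 to ZT4 (SE 0.157; adjusted p = 6.41e-06), where 0.209% of all genes were called, and rose by 0.90 from ZT8 to ZT12 (adjusted p = 0.000139; 3.93% called). Cry2 under NRF rose by 0.75 from ZT4 to ZT8 (adjusted p = 1.06e-05; 1.07% of all genes called) and by 0.39 from ZT8 to ZT12 (adjusted p = 0.0209), and it fell by 0.69 from ZT20 to ZT24 (adjusted p = 7.80e-05; 0.842% called). The NRF steps from ZT12 to ZT16 and from ZT16 to ZT20 called 8.44% and 0.914% of all genes and neither cryptochrome. The Cry1 difference from ZT12 to ZT16 was 0.46 (adjusted p = 0.0584), and without the 2 libraries it was called (adjusted p = 0.00552). So the called fall under NRF ran from ZT20 to ZT24 for Cry2 and from ZT0 to ZT4 for Cry1. The NRF mean of Cry2 was already lower at ZT20 (13.9 TPM) than at ZT12 (19.4 TPM). From ZT16 to ZT20 the Cry2 difference was -0.29 (limma, unadjusted p = 0.00788, adjusted p = 0.222). Under DRF a single step was called for Cry1, a rise of 0.66 from ZT8 to ZT12 (adjusted p = 0.0391; 0.576% called). This call was lost with no filter on low values and without replicate 2, 3 or 4. The fall of Cry1 from ZT20 to ZT24 had a difference of -0.64 (adjusted p = 0.0582; 0.216% of all genes called), and without the 2 libraries it was called (adjusted p = 0.00192). For Cry2 under DRF 0 of 6 steps were called by limma, and 1 had an unadjusted p under 0.05. This was the step from ZT20 to ZT24, with a difference of -0.28 (unadjusted p = 0.0123 in limma). The other DRF steps, from ZT0, ZT4, ZT12 and ZT16, called neither gene and 2.31%, 1.2%, 5.92% and 2.74% of all genes. Without the 2 libraries the rise of Cry2 under NRF from ZT8 to ZT12 was no longer called (0.30; adjusted p = 0.144). The ZT0 and ZT24 groups of a regimen, taken at the same clock time, did not differ past the threshold for either gene (adjusted p from 0.631 to 0.880; 0.0576% of all genes called under NRF and 0.425% under DRF).

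The shape of the waves was examined by adding a 12-h component to the 24-h curve. It was called in 0 of 4 tests by limma, which called 0% of all genes under NRF and 0.209% under DRF. The unadjusted p was under 0.05 for both genes under NRF. For Cry1 under NRF the 12-h amplitude was 0.24 (adjusted p = 0.465, unadjusted p = 0.00261), and for Cry2 under NRF it was 0.13 (adjusted p = 0.764, unadjusted p = 0.0242). Without the 2 libraries the 12-h component of Cry1 under NRF passed (adjusted p = 0.0441), and over the other alternatives its adjusted p ranged from 0.10 to 1.00.

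The ratio of Cry1 to Cry2 was computed within each library, so it is free of the depth of that library and its rhythm is a difference between the curves of both genes. Under NRF the mean ratio was 2.11 at ZT0 and 0.922 at ZT4, fell to 0.517 at ZT8 and climbed through 0.771 at ZT12, 1.21 at ZT16 and 1.798 at ZT20 to 2.45 at ZT24. Cry1 thus stood above Cry2 at the end of the night and below it in the second part of the light phase. Under DRF the mean ratio was 0.728, 0.676 and 0.687 at ZT0, ZT4 and ZT8, rose to 1.14, 1.22 and 1.21 at ZT12, ZT16 and ZT20, and was 0.923 at ZT24. Cry1 was above Cry2 in 18 of 28 libraries under NRF and in 13 of 28 under DRF. Which gene stands higher rests on the exon lengths used (Cry1 3340 bases, Cry2 6320 bases), while changes of the ratio do not. Over single libraries the ratio spanned 0.388 to 2.59 under NRF and 0.377 to 1.42 under DRF, where the lowest value is that of the library labelled ZT4 replicate 1 and the next is 0.620. The mean ratio without the 2 libraries was 0.399 at ZT8 under NRF and 0.821 at ZT4 under DRF.

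**Figure D3:**
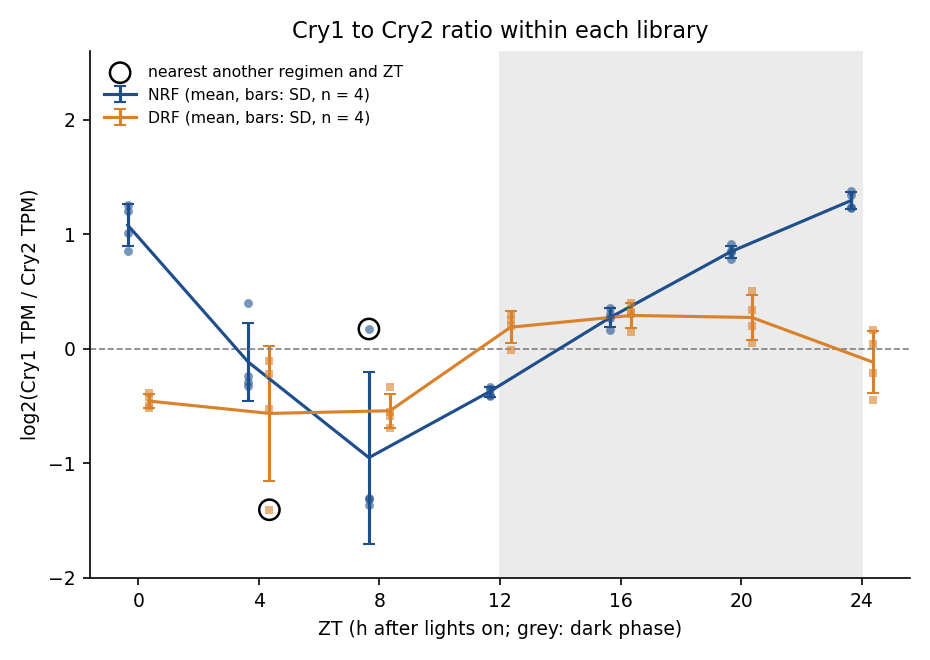
Log2 of the Cry1 to Cry2 ratio (TPM over TPM) in each library by ZT, with lines through the means and bars of 1 SD (n = 4), NRF in blue and DRF in orange. The dashed line marks equal levels, and black circles mark the libraries labelled DRF ZT4 replicate 1 and NRF ZT8 replicate 1. The NRF ratio is highest at ZT24 (mean log2 1.29), where the DRF mean is -0.12.

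The log2 ratio oscillated under both regimens (permutation of ZT labels among 28 libraries, p = 1e-05 in each, the smallest that can be given). Its amplitude was 1.03 ± 0.099 under NRF and 0.51 ± 0.080 under DRF (SE), with fitted peaks at ZT21.5 and ZT16.7. The difference between these curves passed the permutation test within ZT (p = 1e-05). The peak of the ratio shifted by -4.78 h, earlier under DRF (SE 0.658 h; permutation p = 1e-05), and its amplitude differed by -0.52 (permutation p = 0.00345). Without the 2 libraries the amplitudes were 1.12 and 0.44, the shift was -4.67 h (permutation p = 1e-05) and the amplitude difference -0.68 (permutation p = 4e-05). At single ZTs the 4 DRF libraries were separate from the 4 NRF libraries at ZT0 (log2 difference -1.54), ZT12 (0.56), ZT20 (-0.57) and ZT24 (-1.41). Each of these had an exact permutation p = 0.0286, two-sided, which is the smallest that 4 against 4 allows, and an adjusted p of 0.05 over 7 ZTs, at the threshold and not under it. So 0 of 7 ZTs passed after adjustment and 4 had an unadjusted p under 0.05. Without the 2 libraries ZT8 was separate as well (0.78), and 5 ZTs passed (exact permutation, adjusted p = 0.04 each). The mean log2 ratio over the day was lower under DRF by a difference of -0.28 (permutation p = 0.0280), and this did not hold without the 2 libraries (-0.21; permutation p = 0.0878), without replicate 1 (-0.15; permutation p = 0.266), without replicate 3 (-0.29; permutation p = 0.0549) or with the replicate number as a block (permutation p = 0.0779).

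Ordered by mean level, the 14 groups of Cry1 ran from NRF ZT20 (25.03 TPM) through the NRF groups of ZT16, ZT24 and ZT0 (20.9, 20.3 and 19.2 TPM) to the DRF groups of the dark, ZT20, ZT16 and ZT12 (16.9, 16.6 and 15.8 TPM). NRF ZT12 followed at 14.9 TPM, and the 6 groups from DRF ZT24 (10.6 TPM) to NRF ZT4 (7.70 TPM) formed the low end. NRF ZT8 was lowest (6.24 TPM) without the 2 libraries. Neighbours in this order overlapped except at the first step and between NRF ZT12 and DRF ZT24. For Cry2 the order ran from NRF ZT12 (19.4 TPM) to NRF ZT4 (8.28 TPM), with every neighbouring pair overlapping. All 7 DRF groups of Cry2 lay in the middle of its order, and the 3 lowest groups were NRF ZT0, ZT24 and ZT4.

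The partners of the cryptochromes in the loop were compared through a list of 18 clock genes, of which 17 were tested. Under NRF 17 of them were rhythmic, under DRF 16, and the difference in rhythm was called for 16, in tests that called 37.2%, 32.2% and 27.5% of all genes, and these counts were the same without the 2 libraries. The median amplitude of the list was 1.25 under NRF and 0.61 under DRF, against 0.10 for all genes tested under each regimen. The ratio of the DRF to the NRF amplitude had a median of 0.590 and ranged from 0.170 to 1.17. Cry1, at 0.628, lay near that median and Cry2, at 0.187, near its low end, where Per1, a PER repressor, had 0.170. The fitted peak came earlier under DRF in 15 of the 16 genes rhythmic under both regimens, by a median shift of -1.88 h. Cry1 moved in the same direction.

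**Figure D4:**
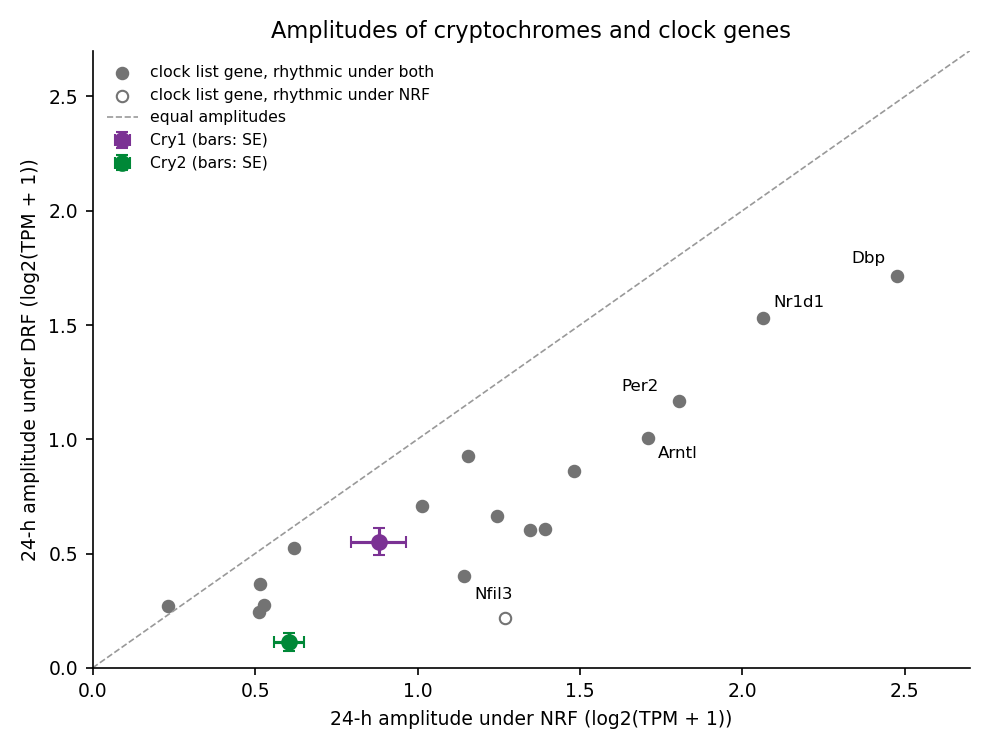
Fitted 24-h amplitude under DRF against that under NRF (log2(TPM + 1)) for 17 clock list genes (grey, open where the DRF rhythm was not called) and for Cry1 (purple) and Cry2 (green) with bars of 1 SE. The dashed line marks equal amplitudes. Cry1 lies at 0.88 and 0.55 and Cry2 at 0.60 and 0.11, both below the line.

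Arntl, of the activators, peaked close to lights on in both regimens, with a shift of -1.71 h (DRF minus NRF), and its amplitude was 1.01 in place of 1.71 (difference in rhythm, adjusted p = 3.19e-07). Of the PER repressors, Per2, which acts in the same complex as the CRY proteins, peaked at ZT14.8 and ZT13.3. The amplitudes of Per2 were 1.81 and 1.17 (NRF, DRF; adjusted p = 4.83e-05). Nr1d1 (REV-ERBα), a repressor of Arntl and of Cry1, peaked at ZT8.15 and ZT7.37 (adjusted p = 0.00300). Dbp, an activator at D-boxes, peaked at ZT11.3 and ZT9.19 (adjusted p = 2.11e-05). Nfil3, a repressor at the same elements, peaked at ZT22.0 and ZT18.8, and the amplitudes of Nfil3 were 1.14 and 0.40 (adjusted p = 1.17e-06).

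Of 15 genes that act on the stability of CRY proteins, 14 were tested. The difference in rhythm was called for 4 of them (27.5% of all genes), and for 6 without the 2 libraries (30.5% of all genes). The rhythm was called for 3 under NRF (37.2% of all genes) and 4 under DRF (32.2%). Usp2, a deubiquitinase, had amplitudes of 0.78 and 0.13 (adjusted p = 4.88e-09), so its transcript flattened as that of Cry2 did. The difference was also called for Skp1a, a ubiquitin ligase subunit (adjusted p = 0.0110), and Csnk1d, a kinase of PER and CRY proteins (adjusted p = 0.0148), both with amplitudes under 0.1 in either regimen.

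Over the 14 group means the transcripts most like Cry1 were Mme (Pearson r = 0.94), Purg (0.91), Abhd5 (0.89), Rasgrp2 (0.89) and Mosmo (0.88). Mme encodes neprilysin, a membrane peptidase, and Abhd5 is the coactivator of the lipase that starts triglyceride breakdown. The most like Cry2 were Usp2 (0.95), Tef (0.94), Bmp4 (0.92), Per3 (0.91) and Gm45909 (0.91). Tef is a D-box activator and Per3 a PER gene, and both are in the clock list. These correlations are descriptions, and their 14 points share libraries and clock time. Between Cry1 and Cry2 themselves r was 0.14, which ranked Cry2 as number 4417 in likeness to Cry1.

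Cry1 rested on 283 to 1530 reads per library and Cry2 on 673 to 2416. The transcript D930015M05Rik lies inside the Cry2 locus on the opposite strand (chr2:92408892-92432308), and a kit that does not mark strand was used. It was listed at 1 to 34 reads per library (0.0549 to 1.78 TPM). Reads from either strand cannot be told apart where both overlap.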

How the data were processed

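PolyA RNA-seq of 56 mouse hearts was analysed, 4 libraries for each of 14 combinations of regimen and ZT, which the study's methods call biological replicates. Groups were taken from the labels alone. The submitters' processing notes name HISAT2 2.0.5 and featureCounts 1.5.0-p3 and the build mm10. Whether counting used strand is not given in the sources used here. The kit does not mark strand and has no molecular identifiers.

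The deposited values, which the authors call TPM, are in another unit. Within each library they equal a constant times the log of (1 + scaled reads), divided by exon length. Whole reads were recovered from these steps with GENCODE M21 exon lengths for 21963 of 22864 genes (Cry1 3340 bases, Cry2 6320 bases), with a searched length for 831 genes, and 3 genes could not be resolved. Of the values tested, 99.9996% came within 0.1 of a whole read. TPM were computed from these reads, and genes averaging 1 TPM or more were tested on log2(TPM + 1).

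Rhythms, differences in rhythm, mean levels and contrasts were fitted with limma 3.58.1 (R 4.3.3, eBayes with trend, Benjamini-Hochberg adjustment over 13893 genes, limit 0.05). The harmonic fit with a period of 24 h stood in for MetaCycle and CircaCompare. Amplitude is from midline to peak. Phase shifts, amplitude differences and the ratio used permutation tests (100000 resamples within ZT, or exact), two-sided, in Python with numpy. Intervals of 95% came from the delta method or from the SE of the fit. All scripts were tested on simulated data. Pseudocount, filter, rescaling, the deposited values, limma voom on reads, each replicate, ZT and library left out, and the replicate number as a block were tried as alternatives, and 2 more were added after the data were seen (without the 2 libraries nearest another regimen and ZT, and with atrial and red cell marker sums as covariates).

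The members, gene lists and tests were chosen with earlier results of these data known. Named genes were Cry1 and Cry2, the 5 genes most correlated with each over the group means, Arntl, Per2, Nr1d1, Nfil3 and Dbp of the clock list, and called genes of the list on CRY stability (up to 4, by lowest adjusted p). Single-gene results for some members of that list are not reported here. Promoter windows came from RefSeq (GRCm38.p6), where both genes matched.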

Additional observations from a re-analysis of the deposited data

Results flagged for a closer look

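In 42 groups of 4 libraries (14 each for Cry1, Cry2 and their log2 ratio) a single library stood apart from the other 3 by Dixon's 95% limit in 4 groups (3 libraries), where chance flags about 1 in 20 groups. The library labelled NRF ZT8 replicate 1 was highest in its group for Cry1 (13.2 TPM) and for the log2 ratio of Cry1 to Cry2 (0.17). It is one of the 2 libraries whose other clock genes lay nearest a group of the other regimen and another ZT. DRF ZT8 replicate 3 was highest for Cry2 (16.04 TPM), and NRF ZT4 replicate 1 was highest for the log2 ratio (0.39).

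The 24-h curve differed between regimens by a test of the difference itself for Cry1 (limma, adjusted p = 1.54e-05), for Cry2 (adjusted p = 4.16e-08) and for the log2 ratio (permutation within ZT, p = 1e-05).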

How the results depend on the processing

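The direction and call of the Cry1 rhythm under both regimens, the Cry2 rhythm under NRF, the difference in rhythm of both genes, the Cry1 phase shift, the Cry2 amplitude difference and the difference between the ratio curves were the same in every alternative run. The 12-h component of Cry1 under NRF passed without the 2 libraries nearest another regimen and ZT (adjusted p = 0.0441). The Cry1 mean level was weaker without ZT12 (-0.20) and ranged from -0.31 to -0.17 over replicates left out. The Cry1 amplitude difference was weaker without ZT4 (-0.21) and ranged from -0.49 to -0.24. The Cry1 steps called under DRF, 1 as reported, were 0 with no filter on low values, 2 after rescaling, 2 on deposited values, 2 with limma voom, 2 without the 2 libraries, and 0 to 2 over replicates left out. Under NRF they were 2, and 3 after rescaling, on deposited values, with limma voom, with covariates, without the 2 libraries and without replicate 1. The Cry2 rhythm under DRF passed after rescaling (adjusted p = 0.0212), on deposited values (0.0435), with limma voom (0.0131), without the 2 libraries (0.0436) and without ZT20 (0.0353). The number of ZTs called for Cry2 ranged from 0 to 5 over replicates left out.

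The sign of some differences that were not called changed. The Cry2 phase shift was 0.497 h after rescaling, 0.923 h on deposited values, 0.112 h with limma voom, 0.313 h without the 2 libraries, 1.01 h without ZT8, 0.174 h without ZT16, 0.360 h without ZT24 and -0.746 to 0.891 h over replicates left out. The Cry2 mean level was -0.014 without the 2 libraries, -0.0077 without ZT4, -0.013 without ZT16 and -0.021 to 0.026 over replicates left out. Cry2 at ZT20 was -0.00069 with atrial and red cell covariates. Over single libraries and replicates left out, Cry1 ranged from -0.027 to 0.38 at ZT4 and from -0.059 to 0.14 at ZT12, and Cry2 from -0.15 to 0.043 at ZT8 and from -0.058 to 0.072 at ZT20.

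The mean log2 ratio over the day was -0.24 without ZT0, -0.23 without ZT12, -0.26 without ZT16, -0.26 without ZT24 and -0.21 without the 2 libraries, none of them passing, and -0.36 to -0.15 over replicates left out, where it was lost without replicate 1 and without replicate 3. The ZTs called for the ratio went from 0 to 5 without the 2 libraries. With replicates left out or with a block, the exact test of the ratio at a ZT cannot reach 0.05 and was not run. With the replicate number as a block (replicate block) the mean log2 ratio of -0.28 no longer passed (permutation p = 0.0779) and the call of Cry2 at ZT16 was lost (adjusted p = 0.0505). Same-numbered libraries of the regimens at the same ZT did not deviate together (correlation -0.18 to 0.11 over 28 pairs, 1 above 0.1). Whether same-numbered libraries of different ZTs deviated together was not tested. The causes of these changes were not tested.

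Both genes had at least 283 reads per library, and whether depth limited the results was not tested. The peak times rest on 4 libraries per group and 4-h steps, and the fit joins ZT0 with ZT24.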
